A study of Homo sapiens with 9 samples.

Results

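Cholesterol and fatty acid synthesis was followed through 33 listed genes, chosen by name: enzymes of the mevalonate pathway, enzymes that turn squalene into cholesterol, regulators and carriers of sterols, and enzymes that build and modify fatty acids. A gene counted as measured where at least 1 probe set of the array is annotated to its symbol alone, and where a gene had several, the probe set brightest on average stood for it. This gave 29 measured genes of the 19775 measured in the series, on 65 of 54613 probe sets. CYP51A1 (lanosterol demethylase) and FADS1 (a polyunsaturated fatty acid desaturase) have only probe sets that carry 2 symbols. FDFT1 (squalene synthase) and ACSL3 (a long-chain acyl-CoA synthetase) matched no probe set under the rule. These 4 genes were not analysed here.

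The cells were MDA-MB-231, a human line from a triple-negative breast cancer. All 9 wells were reverse transfected with a small RNA at 10 nM using Lipofectamine 2000, and total RNA was taken after 48 h: 3 wells received AllStar (a negative control), 3 received Qmimic and 3 received Dmimic. Each well, labelled a biological replicate, was measured on 1 Affymetrix HG-U133 Plus 2.0 array. The series title names miR-34a and the kinase AXL, but the labels leave the letters Q and D unexplained and hold no mimic sequence. No untransfected well was analysed here, so every change is a difference from cells that also received lipid and a control RNA.

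Cells make cholesterol from acetyl-CoA through mevalonate, farnesyl diphosphate and squalene, and they build fatty acids from the same acetyl-CoA through malonyl-CoA. Transcription of both routes is driven by the SREBP factors, encoded by SREBF1 and SREBF2. SCAP escorts these factors from the endoplasmic reticulum to the Golgi, where proteases release them, while INSIG proteins hold SCAP back when sterols are plentiful. Breast cancer cells use both routes for membranes and lipid stores, and medium with serum also supplies them with lipoprotein cholesterol.

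The mature sequence of the microRNA in the title is shown for reference, with its seed (bases 2 to 8) in capitals. It is the RefSeq entry on the minus strand at chr1:9151735-9151756 (GRCh38.p14), and it is not a statement about the content of either mimic.
hsa-miR-34a-5p: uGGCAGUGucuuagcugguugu

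SREBP factors bind sterol regulatory elements, usually beside CCAAT boxes (bound by NF-Y) and GC boxes (bound by Sp1). RefSeq promoter windows of 300 bases (250 before and 50 after a start, GRCh38.p14) were found for 26 of the 29 measured genes, as 35 windows, and were searched on both strands. The sterol element core TCACNCCAC was in 2.86% of these windows, 1 of 35, that of SREBF2, and in 1.13% of all 35116 windows. CCAAT was in 68.6% of them (20 of the 26 genes) and in 34.6% of all windows. GGGCGG, the GC box, was in 88.6% of them (25 of the 26 genes) and in 45.0% of all windows. The sterol core and CCAAT can share letters where they meet, a match is a description and not a site, and no match says only that these letters are not in this window.

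Stretches of 100 bases upstream of the start are shown for 4 genes, 5′ to 3′ on the strand of the gene, with CCAAT (or ATTGG, its complement) and the sterol element core in capitals. SREBF2 is shown as the only gene with the sterol core (chr22:41832926-41833025, plus strand). TM7SF2 had the smallest adjusted p against AllStar (chr11:65111750-65111849, plus strand). STARD4 (chr5:111512614-111512713, minus strand) and SC5D (chr11:121292667-121292766, plus strand) had the largest differences between the mimics.
SREBF2: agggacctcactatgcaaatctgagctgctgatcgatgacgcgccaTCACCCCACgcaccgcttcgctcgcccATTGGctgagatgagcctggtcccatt
TM7SF2: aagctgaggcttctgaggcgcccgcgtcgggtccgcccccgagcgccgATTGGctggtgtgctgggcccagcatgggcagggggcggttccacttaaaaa
STARD4: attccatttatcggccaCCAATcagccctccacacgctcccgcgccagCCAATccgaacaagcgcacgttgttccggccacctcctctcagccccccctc
SC5D: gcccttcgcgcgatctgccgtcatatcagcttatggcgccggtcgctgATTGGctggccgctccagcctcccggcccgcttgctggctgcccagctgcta
In these stretches SREBF2 holds both motifs, STARD4 holds 2 CCAAT boxes, and TM7SF2 and SC5D hold 1 each.

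The third AllStar well, AllStar replicate 3, read the genes of lipid synthesis low, and the whole array differed from the rest. Its correlations with the other arrays were 0.974 to 0.981, against 0.993 to 0.998 among the other 8, and its 18S ribosomal RNA signal was 8.73 on the log2 scale against 5.27 to 6.26. It was the lowest of the 9 arrays for 21 of the 29 genes (72.4%, against 40.2% of all genes). Its log2 values lay below the mean of AllStar replicates 1 and 2 for 22 of the 29, by a median of -0.39, from -0.91 (SQLE) to 0.70 (EBP). Genes of similar level showed the same shift: over the 6274 genes with a mean log2 level of 8 to 12 the median was -0.38, and over the 24 members in that range -0.39. Counts over the 29 genes are therefore given with all 9 arrays and without this array. For many single genes only the change without it is given, and with all 9 arrays the size or sign can differ. ACAT2 with Qmimic, for example, had a log2 change of -0.11 without it and 0.02 with all 9 arrays. The markers of the line were high: VIM, CD44, CAV1 and MSN lay at percentile 98.9 of probe sets or above, while markers it should lack were mixed. Of the 6 luminal or epithelial markers, CDH1 (percentile 17.2), PGR (24.8) and TFF1 (44.9) were low, but ESR1 (69.1), EPCAM (79.8) and ERBB2 (85.3) were not. Of 10 markers of other cell types, PTPRC, COL3A1, CDH5, ADIPOQ and FABP4 lay at 10.2 to 25.7, and CD3E, COL1A1, PDGFRB, PECAM1 and PLIN1 at 50.3 to 73.2. RMA values carry no detection call, so these levels do not show whether a transcript was present. Log2 values are relative to the other transcripts of a well, so fewer cells making a transcript and less of it per cell cannot be told apart.

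**Figure D1:**
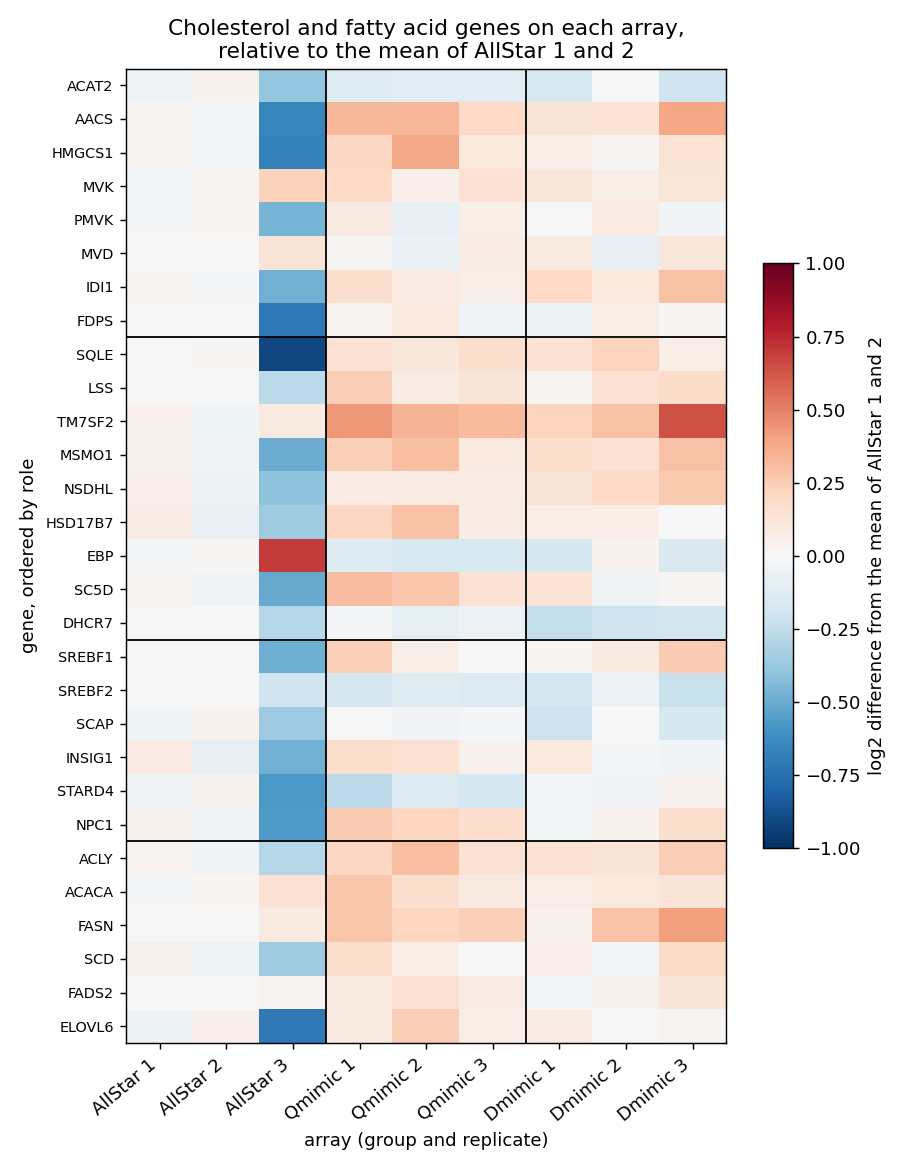
The 29 measured genes (rows, ordered by role, black lines between roles) on the 9 arrays (columns), coloured by the log2 difference from the mean of AllStar replicates 1 and 2. The AllStar 3 column is mostly blue, from -0.91 (SQLE) with EBP at 0.70 as the main exception, and the mimic columns are mostly pale red.

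No gene of cholesterol or fatty acid synthesis passed the thresholds in any comparison. A change was called where the adjusted p from limma (Benjamini-Hochberg over 54613 probe sets) was under 0.05 and the change at least 1.5-fold. With all 9 arrays 0 of 29 were called for Qmimic versus AllStar (0% of all genes higher, 0% lower) and 0 of 29 for Dmimic (0.0101% higher, 0% lower). Over both mimics it was 0 of 29 (0.116% higher, 0.0152% lower). Without AllStar replicate 3, limma called 0 of 29 for Qmimic (0.44% of all genes higher, 0.253% lower), 0 of 29 for Dmimic (0.622% higher, 0.647% lower) and 0 of 29 over both (0.597% higher, 0.445% lower). With these shares over all genes, a count of 0 in 29 is near the background. The smallest adjusted p of any of them was 0.0742 (TM7SF2, both mimics, without AllStar replicate 3), and no change reached 1.5-fold in either fit.

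The changes were small and mostly above 0: with all 9 arrays 25 of 29 were above 0 with Qmimic (47% of all genes) and 24 with Dmimic (48.1%), and 23 with each (47.9% and 52.6%) without AllStar replicate 3. Level matters here: of the 6274 genes with a mean log2 level of 8 to 12, where 24 of the 29 lie, 78.4% were above 0 with Qmimic and 76.3% with Dmimic with all 9 arrays, and 61% and 57.6% without AllStar replicate 3. In the fit of all 9 arrays, 9 of 29 had an unadjusted limma p under 0.05 and were higher with Qmimic (13% of all genes) and 0 were lower (6.74%), and with Dmimic 6 were higher (12.5%) and 0 lower (4.8%). Over both mimics it was 13 higher (16.2%) and 1 lower (7.87%). Among genes of level 8 to 12, 25.3% had such a p and were higher with Qmimic, 24.9% with Dmimic and 32.2% over both. Without AllStar replicate 3 these counts were 10 higher (11.5% of all genes) against 1 lower (9.35%) for Qmimic, and 7 higher (11.7%) against 1 lower (9.65%) for Dmimic, and over both 8 (12.7%) against 2 (10.2%). Genes of level 8 to 12 had 21.2% higher with Qmimic, 21% with Dmimic and 23.3% over both in this fit. The 3 Qmimic arrays lay above both remaining AllStar arrays for 17 of 29 genes (22.6% of all genes) and below them for 5 (21.1%). For Dmimic the counts were 12 above (22%) and 2 below (17.8%). Counting all 3 AllStar arrays, 15 genes lay above with Qmimic (19.2%) and 1 below (11%), and 9 above (17.1%) and 0 below (7.13%) with Dmimic. Genes of level 8 to 12 lay above without overlap in 40.3% (Qmimic) and 35.7% (Dmimic) without AllStar replicate 3, and in 38.8% and 34.3% with all 9 arrays. The median log2 change was 0.24 with Qmimic and 0.21 with Dmimic with all 9 arrays (all genes -0.02 and -0.01), and 0.12 and 0.06 without AllStar replicate 3 (all genes -0.01 and 0.01). Over the genes with a mean log2 level of 8 to 12 the medians were 0.16 and 0.16 with all 9 arrays, and 0.05 and 0.03 without that array. After cyclic loess of all 9 arrays the members' medians were 0.0746 and 0.0488, and with the mean of all probe sets of a gene in place of the brightest the Qmimic median without AllStar replicate 3 was 0.0219. Both mimics share the AllStar arrays, so a low AllStar value raises both differences at once.

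The intervals limit what the arrays could have missed on the chosen probe set of each gene. Intervals of the other probe sets are not given here. With all 9 arrays the unadjusted 95% interval of the change lay wholly inside 1.5-fold in both directions for 19 of 29 genes with Qmimic (71.6% of all genes) and 19 with Dmimic (74.2%). Without AllStar replicate 3 it did so for 28 of 29 with each mimic (93.4% and 92.6% of all genes), TM7SF2 being the exception, and the median distance from the change to the end of its interval was 0.167 on the log2 scale. Changes smaller than that were not resolved. Larger ones also missed the adjusted p, such as 0.38 for TM7SF2 with Dmimic (limma adjusted p = 0.106). An adjusted p above 0.05 does not show that a level stayed the same.

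**Figure D2:**
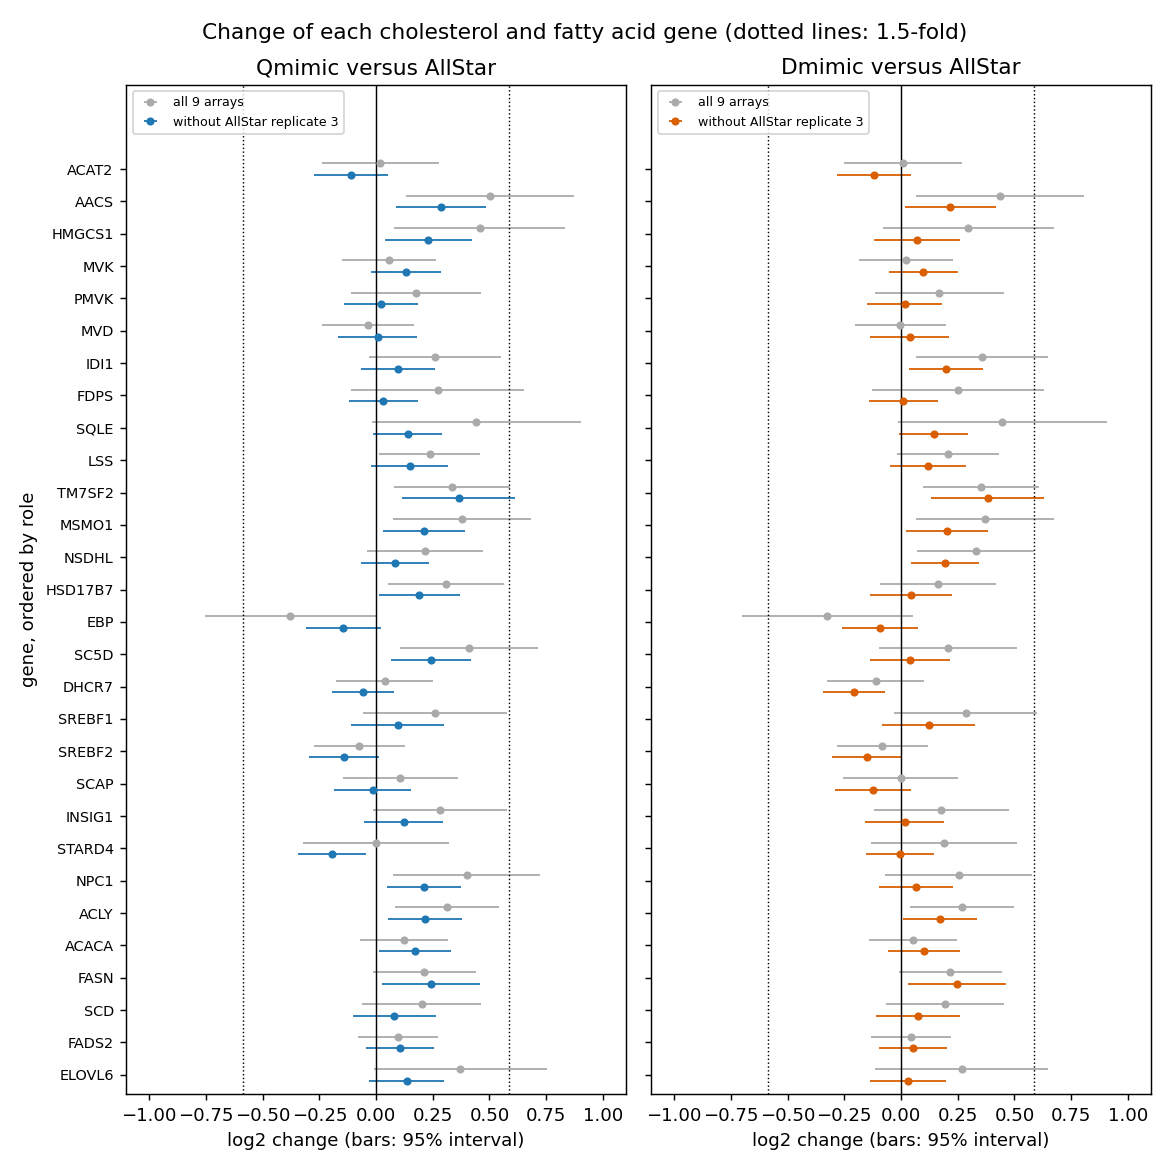
Log2 change of each of the 29 genes (rows) with Qmimic (left) and Dmimic (right) against AllStar, with unadjusted 95% intervals from limma, for all 9 arrays (grey) and without AllStar replicate 3 (coloured). Dotted lines mark 1.5-fold. Without that array the intervals are narrower, and TM7SF2 alone crosses a dotted line.

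Among the regulators, SREBF2, whose product mainly drives the cholesterol enzymes, had log2 levels of 8.03, 8.02 and 7.82 on the 3 AllStar arrays. It lay at 7.86, 7.90 and 7.89 with Qmimic and at 7.85, 7.97 and 7.81 with Dmimic. All 6 mimic arrays were below AllStar replicates 1 and 2, and AllStar replicate 3 was among them. Its log2 change without AllStar replicate 3 was -0.14 for Qmimic (SE 0.0694, limma adjusted p = 0.313) against -0.15 for Dmimic (adjusted p = 0.308), and -0.07 and -0.08 with all 9 arrays. SREBF1, whose product mainly drives fatty acid synthesis, read 9.10, 9.11 and 8.61 with AllStar, 9.34, 9.16 and 9.10 with Qmimic and 9.12, 9.20 and 9.36 with Dmimic. All Dmimic arrays were above all AllStar arrays, while Qmimic overlapped AllStar. In the fit without AllStar replicate 3 its log2 change was 0.10 with Qmimic (limma adjusted p = 0.636) and 0.12 with Dmimic (adjusted p = 0.573). With all 9 arrays it was 0.26 and 0.29 (adjusted p = 0.357 and 0.425).

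SCAP, the escort of both factors, read 8.81, 8.89 and 8.48 with AllStar, 8.86, 8.82 and 8.83 with Qmimic and 8.64, 8.85 and 8.69 with Dmimic, and the groups overlapped. The log2 change of SCAP was -0.02 with Qmimic and -0.12 with Dmimic without AllStar replicate 3. With all 9 arrays it was 0.11 and -0.00. INSIG1, the retention protein and itself a target of SREBP, read 10.91, 10.75 and 10.35 with AllStar. It lay at 11.01, 10.98 and 10.87 with Qmimic and at 10.93, 10.81 and 10.81 with Dmimic. AllStar replicate 1 was inside the range of both mimics. Without AllStar replicate 3 the log2 change was 0.12 with Qmimic (limma adjusted p = 0.447) and 0.02 with Dmimic (adjusted p = 0.948). Another INSIG1 probe set of similar level gave -0.07 and -0.01 in that fit.

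Neither sterol carrier passed the test. STARD4, a cytosolic carrier that moves sterol between membranes, read 9.18, 9.25 and 8.64 with AllStar, 8.95, 9.08 and 9.04 with Qmimic and 9.20, 9.19 and 9.25 with Dmimic. All 3 Qmimic arrays were below all 3 Dmimic arrays and below AllStar replicates 1 and 2, while AllStar replicate 3 was the lowest of all. Without it the log2 change was -0.19 for Qmimic (SE 0.0674, limma adjusted p = 0.165) against -0.00 for Dmimic (adjusted p = 0.993). NPC1, which exports cholesterol from lysosomes, read 9.84, 9.77 and 9.24 with AllStar, 10.06, 10.02 and 9.97 with Qmimic and 9.79, 9.85 and 9.97 with Dmimic. Its log2 change without AllStar replicate 3 was 0.21 for Qmimic (adjusted p = 0.166) against 0.06 for Dmimic (adjusted p = 0.737). Of the 6 regulators and carriers, 3 had a change above 0 and 3 below 0 with each mimic in that fit.

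**Figure D3:**
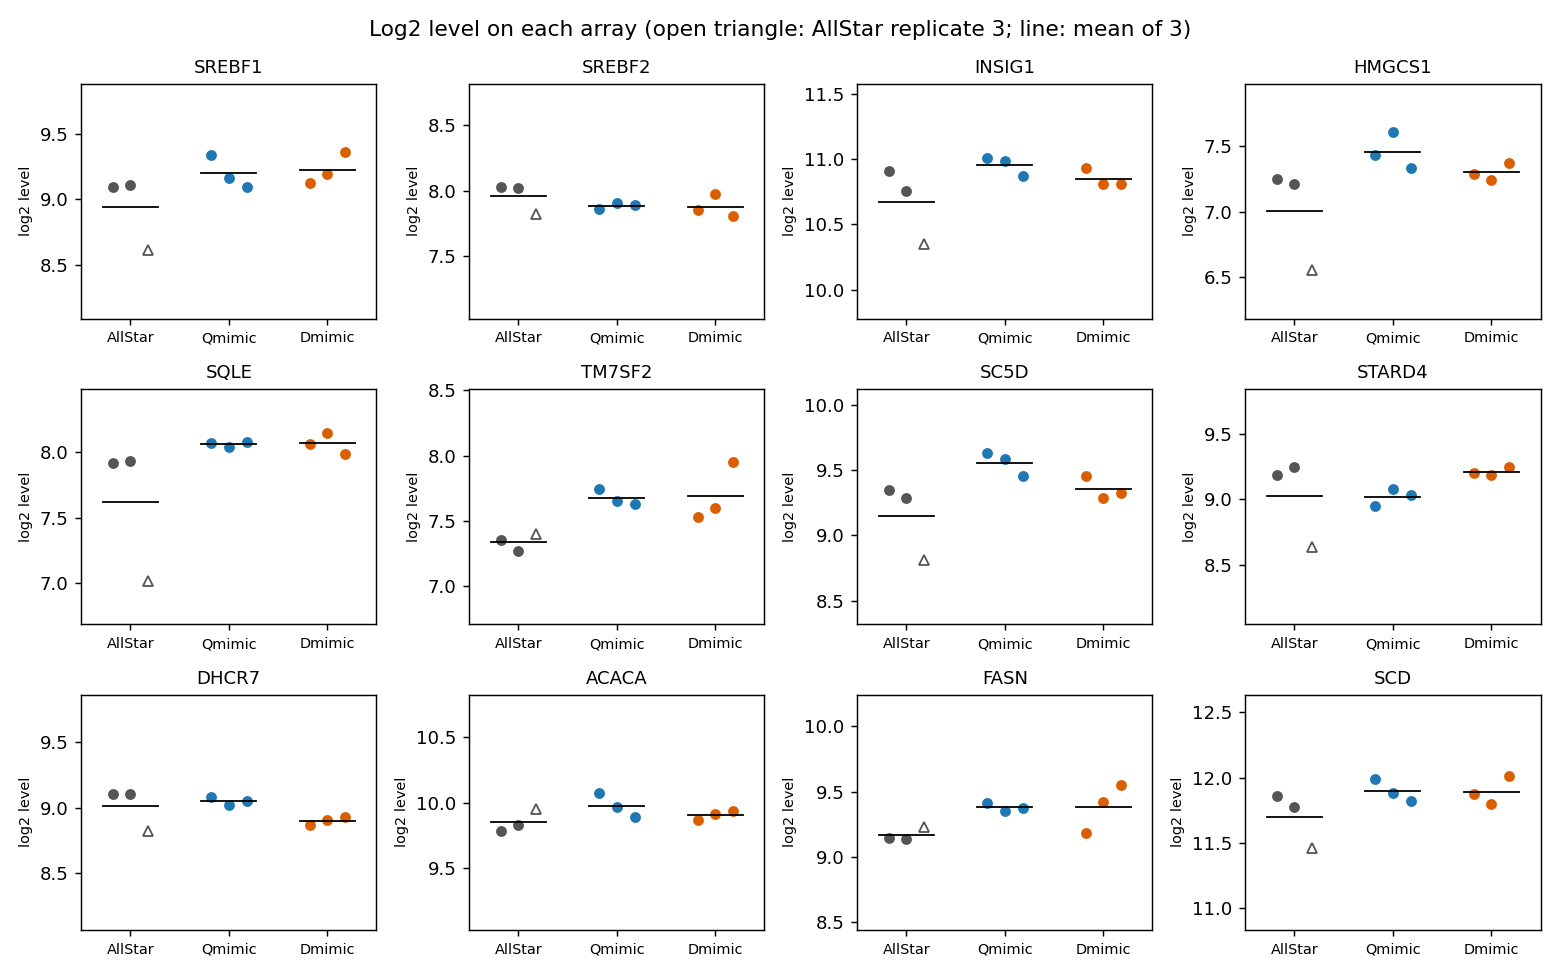
Log2 level of 12 genes on each array (points, replicates 1 to 3 from left to right) with the mean of 3 arrays (line), every panel spanning the same log2 range around its own centre. AllStar replicate 3 (open triangle) is the lowest point for SREBF1, INSIG1, HMGCS1, SQLE, SC5D, STARD4, DHCR7 and SCD. All Qmimic points of STARD4 and all mimic points of SREBF2 and DHCR7 lie below AllStar replicates 1 and 2. All mimic points of TM7SF2 lie above all AllStar points.

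In the mevalonate pathway, 7 of 8 genes had a change above 0 with each mimic without AllStar replicate 3. The median log2 change was 0.07 for Qmimic and 0.06 for Dmimic. In that fit 47.9% and 52.6% of all genes were above 0, and 61% and 57.6% of those of level 8 to 12. AACS, which makes acetoacetyl-CoA from ketone bodies, read 8.39, 8.36 and 7.72 with AllStar, 8.70, 8.71 and 8.57 with Qmimic and 8.51, 8.51 and 8.76 with Dmimic. All mimic arrays were above all AllStar arrays. Its log2 change was 0.50 for Qmimic (SE 0.167, limma adjusted p = 0.237) and 0.44 for Dmimic (adjusted p = 0.324) over all 9 arrays, and 0.29 (SE 0.0898, adjusted p = 0.132) and 0.22 (adjusted p = 0.243) without AllStar replicate 3. HMGCS1, the cytosolic HMG-CoA synthase at the entry to the pathway, read 7.25, 7.21 and 6.55 with AllStar. It read 7.43, 7.61 and 7.34 with Qmimic, above every AllStar array, and 7.29, 7.24 and 7.37 with Dmimic, 1 of which was below AllStar replicate 1. Its change without AllStar replicate 3 was 0.23 for Qmimic (adjusted p = 0.193) against 0.07 for Dmimic (adjusted p = 0.756).

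IDI1, which isomerises isopentenyl diphosphate, read 11.11, 11.07 and 10.61 with AllStar, 11.24, 11.17 and 11.14 with Qmimic and 11.28, 11.19 and 11.38 with Dmimic. The mimic arrays were all above the AllStar arrays, by 0.10 (limma adjusted p = 0.529) and 0.20 (adjusted p = 0.197) on the log2 scale without AllStar replicate 3. Its probe set is of a type that can also bind related transcripts. The other 5 genes had changes of -0.12 to 0.13. ACAT2, the thiolase that joins acetyl-CoA units, differed by -0.11 with Qmimic and -0.12 with Dmimic. MVK and PMVK, which phosphorylate mevalonate, differed by 0.13 and 0.02 with Qmimic and by 0.10 and 0.02 with Dmimic. All mimic arrays of MVK were above AllStar replicates 1 and 2 but below AllStar replicate 3 (8.94). MVD, which forms isopentenyl diphosphate, differed by 0.01 and 0.04, and FDPS, the farnesyl diphosphate synthase, by 0.03 and 0.01, all without AllStar replicate 3.

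On the route from squalene to cholesterol, 7 of 9 genes had a change above 0 with each mimic without AllStar replicate 3. The medians were 0.15 with Qmimic and 0.12 with Dmimic. In that fit 47.9% and 52.6% of all genes were above 0, and 61% and 57.6% of those of level 8 to 12. TM7SF2, a sterol reductase acting after lanosterol, read 7.35, 7.27 and 7.40 with AllStar, 7.74, 7.65 and 7.63 with Qmimic and 7.53, 7.60 and 7.95 with Dmimic. Every mimic array was above every AllStar array, and AllStar replicate 3 was not low here. The log2 change was 0.33 for Qmimic (SE 0.114, limma adjusted p = 0.243) and 0.35 for Dmimic (adjusted p = 0.259) over all 9 arrays. In the other fit it was 0.36 (adjusted p = 0.126) and 0.38 (adjusted p = 0.106), and over both mimics 0.37 (SE 0.1, 95% interval 0.15 to 0.60, adjusted p = 0.0742). This was the smallest adjusted p of the 29 genes.

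SQLE, the squalene epoxidase, read 7.92, 7.93 and 7.02 with AllStar, 8.07, 8.04 and 8.08 with Qmimic and 8.07, 8.15 and 7.99 with Dmimic. All mimic arrays were above all AllStar arrays, and AllStar replicate 3 differed by -0.91 from the mean of the other AllStar arrays. The log2 change moved with that array: it was 0.44 and 0.45 with all 9 arrays (limma adjusted p = 0.314 and 0.4), but 0.14 and 0.14 without it (adjusted p = 0.312 and 0.319). MSMO1, which removes methyl groups of the sterol ring, read 10.70, 10.62 and 10.16 with AllStar, 10.90, 10.96 and 10.76 with Qmimic and 10.84, 10.80 and 10.95 with Dmimic. Here too the mimic arrays were above the AllStar arrays, by 0.21 (adjusted p = 0.201) and 0.20 (adjusted p = 0.225) without AllStar replicate 3.

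NSDHL, which acts with MSMO1 on the same methyl groups, read 8.24, 8.14 and 7.79 with AllStar, 8.27, 8.27 and 8.28 with Qmimic and 8.32, 8.39 and 8.45 with Dmimic. Its Dmimic arrays were the highest, with a log2 change of 0.20 (limma adjusted p = 0.163) against 0.08 for Qmimic (adjusted p = 0.564). HSD17B7, the ketone reductase of that step, read 8.92, 8.78 and 8.49 with AllStar, 9.06, 9.14 and 8.92 with Qmimic and 8.91, 8.91 and 8.85 with Dmimic. Its Qmimic arrays were the highest, by 0.19 (adjusted p = 0.245), on a probe set that can also bind related transcripts. SC5D, which adds a ring double bond late in the route, read 9.35, 9.28 and 8.81 with AllStar, 9.63, 9.59 and 9.46 with Qmimic and 9.45, 9.28 and 9.33 with Dmimic. Qmimic lay above all other arrays, with a log2 change of 0.24 (SE 0.0795, adjusted p = 0.145), and Dmimic overlapped AllStar at 0.04 (adjusted p = 0.862). These changes are those without AllStar replicate 3.

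DHCR7, which catalyses a last step to cholesterol, read 9.11, 9.11 and 8.82 with AllStar, 9.09, 9.02 and 9.05 with Qmimic and 8.87, 8.91 and 8.93 with Dmimic. Both mimics lay below AllStar replicates 1 and 2, Dmimic also lay below Qmimic, and AllStar replicate 3 lay lower still. The log2 change without AllStar replicate 3 was -0.21 for Dmimic (SE 0.0623, limma adjusted p = 0.113) against -0.06 for Qmimic (adjusted p = 0.682), and with all 9 arrays -0.11 (adjusted p = 0.589) and 0.04 (adjusted p = 0.826), a turn of sign for Qmimic. EBP, a sterol isomerase, went the other way on AllStar replicate 3, at 10.36 against 9.65 and 9.67 on the other AllStar arrays. Its change over all 9 arrays was -0.38 for Qmimic (adjusted p = 0.306) and -0.32 for Dmimic (adjusted p = 0.442), and -0.14 and -0.09 without that array. LSS, the lanosterol synthase, lay higher by 0.15 and 0.12 (adjusted p = 0.335 and 0.485) without it.

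In fatty acid synthesis, 6 of 6 measured genes had a change above 0 with each mimic in both fits, on the chosen probe set. With 9 arrays 78.4% of genes of level 8 to 12 were above 0 with Qmimic (47% of all genes) and 76.3% with Dmimic (48.1%). Without AllStar replicate 3 these were 61% (47.9%) and 57.6% (52.6%). Every gene of the 6 but FASN had another probe set below 0 over both mimics without AllStar replicate 3. Their lowest values ran from -0.44 for SCD to -0.00 for ACLY. The median log2 change of the 6 was 0.21 for each mimic with all 9 arrays. It was 0.15 with Qmimic and 0.09 with Dmimic without AllStar replicate 3. ACLY, which supplies cytosolic acetyl-CoA from citrate, read 11.29, 11.24 and 10.98 with AllStar, 11.47, 11.57 and 11.40 with Qmimic and 11.41, 11.39 and 11.51 with Dmimic. No mimic array overlapped AllStar, and its log2 change was 0.31 with Qmimic (SE 0.102, limma adjusted p = 0.234) with all 9 arrays and 0.22 (adjusted p = 0.156) without AllStar replicate 3. ACACA, which makes malonyl-CoA and commits it to fatty acids, read 9.78, 9.83 and 9.95 with AllStar, 10.07, 9.97 and 9.89 with Qmimic and 9.87, 9.91 and 9.94 with Dmimic. Here AllStar replicate 3 was the highest AllStar array, above all Dmimic arrays and inside the Qmimic range. Without it the change was 0.17 (adjusted p = 0.237) and 0.10 (adjusted p = 0.536).

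FASN, which builds palmitate, read 9.15, 9.13 and 9.23 with AllStar, 9.42, 9.36 and 9.38 with Qmimic and 9.18, 9.42 and 9.55 with Dmimic. Qmimic lay above all AllStar arrays and Dmimic replicate 1 lay below AllStar replicate 3, so the Dmimic wells spread widely. The log2 change was 0.21 and 0.22 with all 9 arrays (limma adjusted p = 0.32 and 0.406) and 0.24 and 0.25 without AllStar replicate 3 (adjusted p = 0.219 and 0.22). SCD, which places the first double bond in stearate, read 11.86, 11.78 and 11.46 with AllStar, 11.99, 11.88 and 11.83 with Qmimic and 11.87, 11.80 and 12.01 with Dmimic. AllStar replicate 1 overlapped both mimics, and the change without AllStar replicate 3 was 0.08 with each. FADS2, a desaturase of polyunsaturated fatty acids, differed by 0.11 with Qmimic and 0.05 with Dmimic, and ELOVL6, which elongates palmitate, by 0.13 and 0.03, in the same fit.

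Other probe sets of the same genes did not all side with the chosen one. The smallest adjusted p over the 65 was 0.0699 in any comparison and either fit, on a second probe set of MVK with Dmimic (log2 change 0.30, without AllStar replicate 3). Of the 36 not chosen, 19 had the sign of the chosen probe set over both mimics without AllStar replicate 3 and 17 the opposite sign. IDI1 (4 probe sets), LSS (3), NSDHL (2), SREBF1 (2) and FASN (2) had all changes above 0. SREBF2 (3), EBP (4) and DHCR7 (2) had all changes below 0. SCD was split, with log2 changes of 0.08 on the chosen probe set and -0.08, -0.38 (limma adjusted p = 0.187) and -0.44 (adjusted p = 0.207) on the others. HMGCS1 had -0.25 on its other probe set (adjusted p = 0.0941) and SC5D -0.44 on its other, dim one (adjusted p = 0.0906), both against changes above 0 on the chosen one. INSIG1, NPC1, ACACA, MVK, SQLE, ACLY, FADS2 and ELOVL6 also had probe sets of both signs, from -0.16 to 0.14 for ACACA. For all of these genes the sign depends on which probe set is read. The opposing values of ACLY (-0.00), ELOVL6 (-0.01) and SQLE (-0.01) were close to 0. Those of ACACA, NPC1, FADS2 and MVK came from dim probe sets, at mean log2 levels of 3.39 to 6.25.

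The mimics were close to each other on these genes. For Qmimic versus Dmimic limma called 0 of 29 with all 9 arrays (0% of all genes higher, 0% lower) and 0 of 29 without AllStar replicate 3 (0.0101% higher, 0.086% lower). An unadjusted p under 0.05 was found for 0 of 29 in the first fit, and for 2 higher and 1 lower in the second (5.91% and 5.76% of all genes, against 1.04% and 1.5% in the first). The log2 difference between the mimics was -0.19 for STARD4 (adjusted p = 0.29), 0.20 for SC5D (adjusted p = 0.336) and 0.15 for DHCR7 (adjusted p = 0.36). The 3 arrays of each mimic did not overlap for these 3 genes, nor for NPC1 and HSD17B7 (higher with Qmimic) and NSDHL (lower with Qmimic): in all 4 of 29 were higher (8.12% of all genes) and 2 lower (9.4%), close to the background. On the chosen probe sets the interval of the difference lay inside 1.5-fold for all 29 genes in both fits (91.8% and 98.2% of all genes). With 3 arrays against 3 an exact permutation test of 1 gene cannot give a p below 0.1.

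Around these genes, 3 further lists described neighbouring steps: sterol handling (21 of 24 genes measured), other fatty acid supply, elongation and lipid assembly (25 of 27), and fatty acid oxidation (17 of 18). With all 9 arrays limma called 0 genes of any list with either mimic. At an unadjusted p under 0.05 with Qmimic, 8 sterol handling genes were higher and 1 lower, 7 and 2 of the supply list, and 8 and 0 of the oxidation list, where all genes had 13% higher and 6.74% lower, and genes of level 8 to 12 had 25.3% higher. With Dmimic these counts were 7 and 2, 5 and 4, and 7 and 0 (all genes 12.5% and 4.8%). Without AllStar replicate 3, 2 sterol handling genes were called higher for Qmimic, while Dmimic had 1 called higher and 1 called lower. Over all genes 0.44% were called higher and 0.253% lower with Qmimic, and 0.622% and 0.647% with Dmimic. In the supply list 2 were called lower with Dmimic and 0 with Qmimic, and in the oxidation list 0 with either. At an unadjusted p under 0.05 in this fit, Qmimic had 7 higher and 4 lower for sterol handling. It had 4 and 4 for supply, and 8 and 1 for oxidation. With Dmimic these counts were 6 and 3, 4 and 8, and 7 and 1. All genes had 11.5% higher and 9.35% lower with Qmimic, and 11.7% and 9.65% with Dmimic. Genes of level 8 to 12 had 21.2% and 10.8% with Qmimic, and 21% and 15.3% with Dmimic. Median log2 changes with Qmimic in that fit were 0.04, 0.02 and 0.17, against -0.01 over all genes. Each of these calls was lost when AllStar replicate 1 or 2 was also left out (0 genes called in either list).

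MBTPS2 encodes the protease that makes the final cut releasing SREBP in the Golgi, and it rose with both mimics without AllStar replicate 3. Its log2 levels were 8.81, 8.97 and 8.30 with AllStar, 9.52, 9.51 and 9.43 with Qmimic and 9.38, 9.39 and 9.67 with Dmimic, with no overlap. The log2 change was 0.60 for Qmimic (SE 0.0974, limma adjusted p = 0.0204) against 0.59 for Dmimic (adjusted p = 0.0209), and 0.79 with each with all 9 arrays (adjusted p = 0.146 and 0.113). The call rests on 1 of its 3 probe sets, the others giving 0.045 and -0.132 with Qmimic. ABCA1, which exports cholesterol from the cell, read 9.32, 9.17 and 9.17 with AllStar, 9.90, 9.95 and 9.70 with Qmimic and 9.79, 9.54 and 9.99 with Dmimic. The groups did not overlap, and the log2 change without AllStar replicate 3 was 0.60 with Qmimic (adjusted p = 0.0439), where it rose, and 0.53 with Dmimic (adjusted p = 0.0558). With all 9 arrays it was 0.63 and 0.55 (adjusted p = 0.139 and 0.133), and without AllStar replicate 3, 2 of its 4 probe sets passed with Qmimic and 1 with Dmimic.

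ERLIN1, a protein of the endoplasmic reticulum membrane linked to the turnover of sterol-regulated proteins, fell with Dmimic without AllStar replicate 3. It read 10.50, 10.49 and 9.96 with AllStar, 9.77, 9.94 and 9.96 with Qmimic and 9.78, 9.90 and 9.21 with Dmimic, and AllStar replicate 3 was level with the highest Qmimic array. The log2 change without that array was -0.87 for Dmimic (SE 0.165, limma adjusted p = 0.0308) against -0.60 for Qmimic (adjusted p = 0.0931), and with all 9 arrays -0.69 (adjusted p = 0.206) and -0.43 (adjusted p = 0.309). Its other probe set passed with both mimics without AllStar replicate 3, at -1.15 for Dmimic (adjusted p = 0.0111) and -1.06 for Qmimic (adjusted p = 0.0143). SCD5, a second stearoyl-CoA desaturase, read 8.97, 9.03 and 8.33 with AllStar, 8.74, 8.86 and 8.86 with Qmimic and 8.33, 8.44 and 8.23 with Dmimic. It fell with Dmimic by 0.67 on the log2 scale (adjusted p = 0.0083) without AllStar replicate 3, and that array lay within the Dmimic range, so the change was -0.44 with all 9 arrays (adjusted p = 0.318). The call rests on 1 of its 4 probe sets, the others giving 0.148, -0.324 and -0.01 with Dmimic. On that probe set SCD5 differed between the mimics by 0.48 (adjusted p = 0.0298), under 1.5-fold. ACSL4, an acyl-CoA synthetase for polyunsaturated fatty acids, was the other gene called lower with Dmimic (-0.62, adjusted p = 0.0412) and was named after its values were seen.

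The remaining genes named by rule passed adjusted p in 1 fit without reaching 1.5-fold, or did not pass. FADS3, a relative of the desaturases, lay higher by 0.38 with Qmimic and 0.51 with Dmimic without AllStar replicate 3 (limma adjusted p = 0.0267 and 0.0114). In that fit DGAT1, which makes triglycerides, differed by -0.47 with Dmimic (adjusted p = 0.0211), and MLX, a partner of glucose-sensing transcription factors, by 0.43 with Dmimic (adjusted p = 0.0281). MLX was also 10.86 on AllStar replicate 3 against 9.94 and 9.97, and its change with all 9 arrays was 0.13. MYLIP, a ubiquitin ligase of lipoprotein receptors, differed by -0.37 with Qmimic (adjusted p = 0.0344). SLC25A20, the carnitine carrier of mitochondria, differed by 0.50 with Dmimic (adjusted p = 0.0303). PPARA, ETFDH and CPT2, of the oxidation list, had smallest adjusted p values of 0.0612, 0.0628 and 0.0633 on the probe set that stood for each. On another probe set, CPT2 (0.80, adjusted p = 0.0246) and ETFDH (0.61, adjusted p = 0.0403) passed with Dmimic without AllStar replicate 3, and PPARA had 0.58 (adjusted p = 0.0366), under 1.5-fold.

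**Figure D4:**
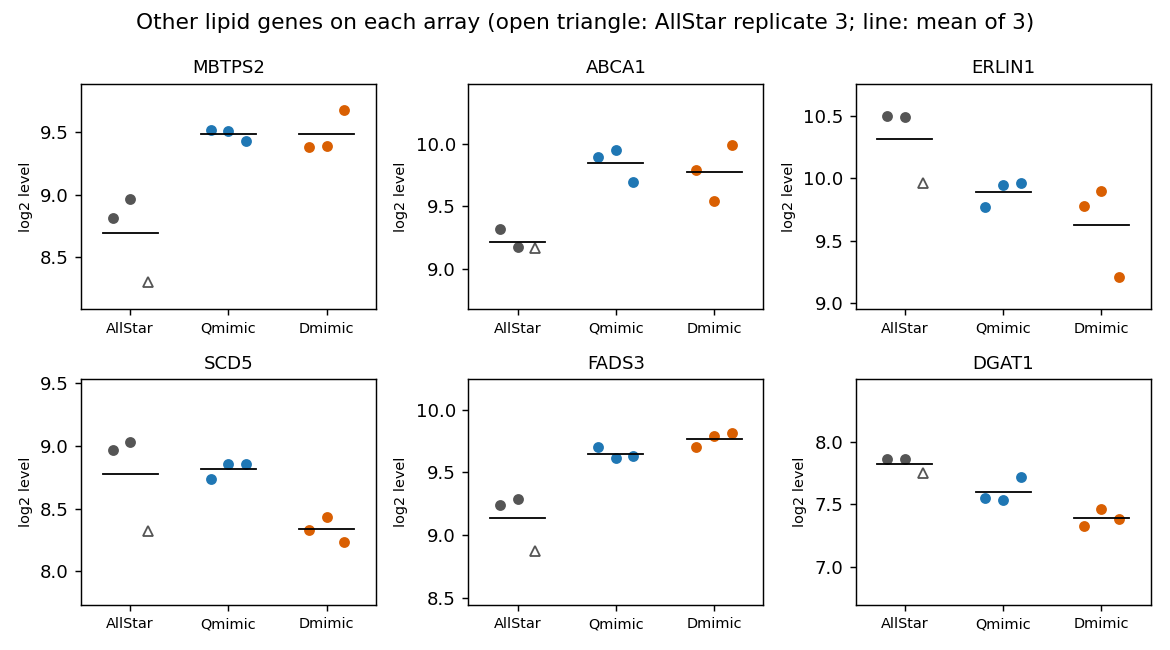
Log2 level of 6 genes of the neighbouring lists on each array (points, replicates 1 to 3 from left to right) with the mean of 3 arrays (line). MBTPS2, ABCA1 and FADS3 sit higher on all mimic arrays than on all AllStar arrays, while AllStar replicate 3 (open triangle) sits with the mimics for ERLIN1 and with Dmimic for SCD5.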

How the data were processed

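Total RNA of 9 wells was measured on HG-U133 Plus 2.0 arrays. The deposited values are log2 levels per probe set that the authors made with RMA, per the series text, which also names limma, as do the submitters' processing notes, without versions. Arrays have no read depth, and 3 arrays a group set the precision.

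Leaving out 62 control probe sets, 54613 were tested. Of these 41091 carry 1 symbol, 1801 several and 11721 none in the array annotation. A model with 3 groups was fitted in limma 3.58.1 (R 4.3.3, eBayes), and p-values were adjusted by Benjamini-Hochberg over all 54613. It was fitted to all 9 arrays and again without AllStar replicate 3. The model was tested on simulated data. The members, lists, thresholds, alternatives and the second fit were chosen with earlier results of these data known. Named genes were all members, those with the 5 smallest adjusted p in a comparison or set by name being given per array, and up to 4 genes per further list. Sequences and motif counts came from RefSeq tables (GRCh38.p14).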

Additional observations from a re-analysis of the deposited data

How the results depend on the processing

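No member was called under any alternative, with or without AllStar replicate 3, including adjusted p alone, and no value changed its sign among the medians against AllStar. The size of the median log2 change did move. With Qmimic (0.24) it was 0.10 after repeated quantile normalization, 0.0746 after cyclic loess, 0.12 with array weights and 0.12 with the mean of all probe sets of a gene. With Dmimic (0.21) it was 0.0808, 0.0488 and 0.0827 under the first 3 of these. Over both mimics (0.23) it was 0.11, 0.0692, 0.11 and 0.0943. Leaving out each array in turn gave 0.12 to 0.31 for Qmimic, 0.0643 to 0.28 for Dmimic and 0.12 to 0.33 over both, the lowest each time without AllStar replicate 3. Without that array the mean of all probe sets gave 0.0219 for Qmimic and 0.0206 over both, and leaving out a further array gave 0.10 to 0.13, 0.04 to 0.10 and 0.10 to 0.13. Between the mimics the range was -0.00 to 0.06.

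No pairing by replicate number was evident: deviations of arrays with the same number correlated at -0.275 to 0.219, and above 0.1 in only 3 of 9 pairs. With 3 arrays a group and AllStar replicate 3 included, this check cannot show that the arrays were unpaired. With the number as a block 0 members were called and the median was 0.24, 0.21 and 0.23, and 0.12, 0.07 and 0.11 without AllStar replicate 3, where the block left 0 sterol handling and 0 supply genes called.

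For the further lists these alternatives were chosen after seeing the data. Apart from leaving out AllStar replicate 3, shares of all genes called under these alternatives are not given. Those counts therefore cannot be compared with a background. With all 9 arrays (0 called) the sterol handling list had 1 in the upper 50% of levels, 1 after quantile normalization, 2 after cyclic loess, 3 with array weights and 0 to 3 with an array left out. The supply list (0) had 1 after cyclic loess, 1 with array weights and 0 to 2 with an array left out. Without AllStar replicate 3, the sterol handling list (3) had 0 at a log2 change of 1.5, 1 after cyclic loess and 0 to 4 with a further array left out. The supply list (2) had 0 at a log2 change of 1.5, 6 by adjusted p alone, 0 with the mean of probe sets, 0 with only the groups compared and 0 to 2 with a further array left out. The oxidation list (0) had 1 by adjusted p alone, 1 with the mean of probe sets and 0 to 1 with a further array left out. The cause was not tested.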
